A study of Rattus norvegicus with 12 samples.

Results

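The fucosyltransferases attach the sugar L-fucose to glycans and proteins. Their genes were measured in rat renal cortex after 4 weeks of dosing with BDCM (bromodichloromethane), which forms when drinking water is chlorinated and is toxic to rodent kidney. The family was taken as all probes whose RefSeq transcript belongs to Fut1, Fut2, Fut4, Fut7, Fut8, Fut9, Fut10 or Fut11 (the last 2 are now also called Pofut3 and Pofut4), which gave 12 of the 61573 probes analysed and 8 of the 15284 named genes. Fut1 was chosen by its measured BDCM minus oil difference in these same animals, so its BDCM values are given as a description and carry no test. The other 7 genes were taken by family name, and their changes were tested.

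Expression was measured on 1-colour Agilent arrays, 1 array and 1 animal each, in 12 male Sprague-Dawley rats (Crl:CD(SD)) that were bought at 5 weeks of age. There were 4 groups of 3 animals: BDCM at 200 mg/kg per day under CO2-O2 anaesthesia, its corn oil control, BDCM at the same dose under isoflurane anaesthesia, and its corn oil control. Both treatments lasted 4 weeks, and the cortex was sampled 24 h after dosing ended. The anaesthetic, the experiment, the array slides and the scan days go together, so their effects cannot be told apart.

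Fucosyltransferases use GDP-fucose as donor, and each enzyme puts the sugar in a set place. Fut1 and Fut2 add it in alpha-1,2 linkage to a terminal galactose, which makes the H antigen on which the A and B blood group transferases act. Fut4, Fut7 and Fut9 add it in alpha-1,3 linkage to N-acetylglucosamine and so make Lewis x structures, including the sialylated form that selectins bind. Fut8 adds it in alpha-1,6 linkage to the innermost sugar of N-glycans (core fucose), while Fut10 and Fut11, named for their sequence, act in human cells on proteins of the secretory pathway. In kidney, fucosylated glycans coat tubule cells, and their pattern is known to differ along the nephron.

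Each array had 41529 to 44714 probes well above background, or 67.4 to 72.5% of its 61657 non-control probes, and 0 to 6 saturated ones. With 3 arrays per group, precision is limited. Signals are log2 values with the 75th percentile of each array at 0, and they compare animals for 1 probe, not probes with each other. A probe was tested when every animal of some group had it well above background, which left 43274 probes. Of the 12 fucosyltransferase probes 7 passed, from 5 genes (Fut1, Fut4, Fut8, Fut9 and Fut11). The 5 that did not pass were 1 of Fut1, both of Fut2 and the single probes of Fut7 and Fut10. Changes were tested with limma over all 43274 probes, and a probe was called at a Benjamini-Hochberg adjusted p under 0.05. The tissue is whole cortex, so fewer cells of a type and less RNA per cell cannot be told apart. Markers of proximal tubule were well above background on every array (6 of 6 genes), as were those of the distal nephron (7 of 7). Liver markers were also detected, with 1 of 9 genes (Tat) below background throughout. In the mean of both experiments, proximal tubule markers were called lower with BDCM in 6 of 6 genes and tubular injury markers higher in 3 of 5. Of all tested probes, 20.4% were called lower and 17.9% higher there. In the CO2-O2 experiment alone the counts were 5 of 6 and 3 of 5, and in the isoflurane experiment 6 of 6 and 2 of 5.

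Fut1, which builds the H antigen, was measurable with BDCM and not with oil. On the Fut1 probe that passed the filter, A_64_P080509, the 3 BDCM animals of the CO2-O2 experiment had log2 signals of -1.30, -2.30 and -1.92, against -7.49, -7.47 and -6.74 in the 3 oil animals. In the isoflurane experiment the BDCM animals had -1.63, -0.16 and -2.74, against -6.67, -6.68 and -7.04 in oil animals. The probe was well above background in 6 of 6 BDCM animals and in 0 of 6 oil animals, and treated and control values did not overlap in either experiment, as was so with BDCM higher for 13.5% of all tested probes.

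Because the oil animals had no measurable signal, the size is given as a lower bound. Each oil value was raised to the background limit of its array, the dimmest signal scored as well above background there. That is the most lenient limit, and a probe can lie above it without being scored. Fut7 in isoflurane oil animal 1 read -5.655 and was not scored, with the limit of that array at -5.756. The bounds given here hold for this limit only. Fut1 was then at least 23.65-fold higher with BDCM under CO2-O2 and at least 21.79-fold higher under isoflurane. The isoflurane bound was 13.66-fold without BDCM animal 2 and 33.34-fold without BDCM animal 3. The measured log2 differences were 5.39 and 5.29. They were 2.41 and 2.70 when background was corrected with normexp and an offset of 50, which lifts dim signals. In intensity units the probe read 446, 241 and 292 in the BDCM animals of the CO2-O2 experiment, against 6.54, 6.58 and 10.1 in their oil controls. The isoflurane BDCM animals read 435, 1154 and 222, against 13.0, 12.3 and 9.38 in theirs.

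The second Fut1 probe, A_42_P680338, was nearer its background limit. Its log2 signals were -4.94, -5.95 and -5.44 in CO2-O2 BDCM animals, against -8.26, -8.39 and -8.41 in oil animals, and -5.16, -3.72 and -6.64 in isoflurane BDCM animals, against -7.68, -7.70 and -8.37. It was well above background in 2 of 3 BDCM animals of each experiment and in 0 of 6 oil animals, and therefore did not enter the tests. The bounds were at least 1.94-fold higher with BDCM under CO2-O2 and at least 1.72-fold under isoflurane. The second rests on BDCM animal 2, without which it was 1.04-fold (2.86-fold without BDCM animal 3). Both probes put the 6 BDCM animals in the same order, with isoflurane animal 2 highest and isoflurane animal 3 lowest.

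No Fut1 difference was detected between the 2 BDCM groups. Isoflurane minus CO2-O2 in BDCM animals was 0.33 on the first probe (limma, 95% confidence interval -0.86 to 1.52, adjusted p = 0.710), and without isoflurane BDCM animal 2 it was -0.34. The 3 isoflurane BDCM animals were more spread (SD 1.29) than the 3 CO2-O2 BDCM animals (SD 0.504). Of the oil groups nothing can be said, since both lay below background.

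**Figure D1:**
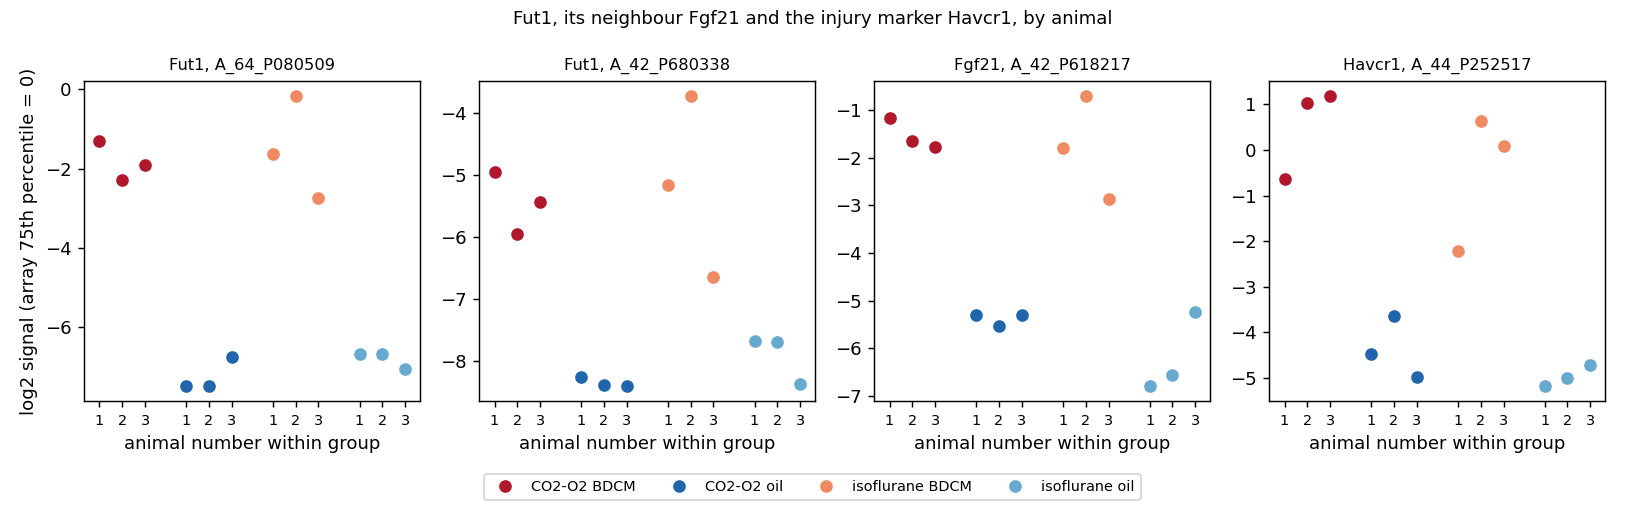
Log2 signal (75th percentile of each array at 0) of both Fut1 probes, the neighbouring gene Fgf21 and the injury marker Havcr1 in each animal, by group and animal number. Each point is 1 animal, and each panel has its own scale. All BDCM points lie above all oil points of the same experiment in the 4 panels, and isoflurane BDCM animal 2 is the highest for Fut1 and Fgf21.

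Slides held both treatments in part. With oil signals raised to the background limit, BDCM animal 2 of the CO2-O2 experiment was at least 17.2-fold above the 3 oil animals of slide 1 for the first Fut1 probe. On slide 4, BDCM animals 1 and 2 of the isoflurane experiment were at least 43.36-fold above oil animal 3, and within scan day 3 at least 33.34-fold above the 3 oil animals. These batch values were chosen after the data were seen. Of the 5 tubular injury markers, Havcr1, Spp1 and Krt18 were called higher with BDCM in the mean of both experiments, while Lcn2 differed by 0.32 (adjusted p = 0.460) and Vcam1 by -0.24 (0.347). The summed linear signal of the 5 injury markers, relative to the 75th percentile, ran from 51.9 to 170 in CO2-O2 BDCM animals, against 19.4 to 23.1 in oil animals, and from 44.7 to 98.0 in isoflurane BDCM animals, against 18.7 to 19.1, and in BDCM animals it is mostly Spp1 (osteopontin). Among BDCM animals the order differed in part from that of Fut1. Havcr1 (KIM-1), a surface protein of injured proximal tubule cells, read -0.63, 1.04 and 1.20 in CO2-O2 animals and -2.22, 0.64 and 0.09 in isoflurane animals. Animal 1 was the lowest for Havcr1 and Spp1 in both BDCM groups. For Fut1 it was the highest in the CO2-O2 group and the middle one in the isoflurane group. Isoflurane animal 2 was the highest of its group for both Havcr1 and Fut1. Krt18 gave another order, with isoflurane animal 1 highest (3.33, against 3.05 and 3.31) and CO2-O2 animal 1 in the middle (3.30, against 3.35 and 3.26). The part of tubular injury in the Fut1 values was not tested. The 8 leukocyte markers summed to 3.23 to 4.59 and 2.78 to 3.94 in the CO2-O2 and isoflurane BDCM animals, against 3.59 to 4.19 and 2.78 to 4.13 in oil animals. These sums are mostly Cd68 and Ptprc. In the mean of both experiments 0 of 8 were called, and in the isoflurane experiment alone 1 of 8 was called lower. The summed liver markers ran from 7.65 to 8.02 in CO2-O2 BDCM animals, against 9.995 to 12.4 in oil animals. In isoflurane BDCM animals they ran from 4.41 to 5.41, against 6.503 to 8.60. F2 is the largest part of the sum in every animal. Its mean log2 signal was 2.03 with BDCM against 2.90 with oil under CO2-O2, and 2.00 against 2.64 under isoflurane. Single liver genes went both ways: of 8 tested, 1 was called higher and 2 lower in the mean of both experiments, with a median difference of 0.30. The median was 0.63 under CO2-O2, opposite in sign to the sums, and -0.09 under isoflurane. Each experiment alone called 0 higher and 2 lower.

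Fut2, the secretor gene that makes the H antigen in secretory epithelia, was not scored as well above background on any of the 12 arrays with either probe. Probe A_42_P667763 lay between -8.54 and -7.47 over the 12 animals, and probe A_44_P262324 between -8.28 and -5.77. The value of -5.77, in isoflurane BDCM animal 3, lay above the limit of that array, -6.063, without being scored. No fold is given. Sec1, another gene of this subfamily that lies beside Fut2, was below background on all 12 arrays (-8.74 to -7.24). The 3 genes are related in sequence, and binding of other family members' RNA to the Fut1 probes was not tested.

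Fut1 sits in a cluster on chromosome 1 in the RefSeq gene order. Its neighbours are Nucb1, Ppp1r15a, Plekha4, Hsd17b14, Bcat2 and Fgf21 on one side and Izumo1, Rasip1, Mamstr, Fut2, Sec1 and Ntn5 on the other. Mamstr had no probe named here. The promoter of Fut1 is not in the RefSeq promoter table, so 2 others of the cluster are shown. One is that of Fgf21, the gene directly beside Fut1 and one of its closest matches in signal. The other is that of Fut2, the other alpha-1,2 fucosyltransferase, which was not scored as well above background in any animal. Each runs from 250 bases before to 50 bases after the start, 5′ to 3′ on the gene's strand, from RefSeq (GRCr8), with motif matches in capitals.
Fgf21, chr1:105221327-105221626, minus strand: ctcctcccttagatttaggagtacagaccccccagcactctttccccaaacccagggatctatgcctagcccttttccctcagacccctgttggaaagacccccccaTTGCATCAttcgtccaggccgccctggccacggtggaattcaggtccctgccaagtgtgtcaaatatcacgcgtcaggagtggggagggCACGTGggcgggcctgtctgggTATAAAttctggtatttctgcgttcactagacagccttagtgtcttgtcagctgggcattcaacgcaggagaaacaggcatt
Fut2, chr1:105275978-105276277, minus strand: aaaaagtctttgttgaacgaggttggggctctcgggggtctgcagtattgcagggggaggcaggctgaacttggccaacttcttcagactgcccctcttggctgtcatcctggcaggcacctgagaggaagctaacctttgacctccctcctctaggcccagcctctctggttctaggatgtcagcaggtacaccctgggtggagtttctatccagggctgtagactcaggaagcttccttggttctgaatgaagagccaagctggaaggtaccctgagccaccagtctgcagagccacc

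In these promoters 4 motifs were searched on both strands: TGATGNAA, the core of the C/EBP-ATF composite element bound by ATF4, CACGTG, an E-box, TATAAA, the TATA box core, and TGACNNNGC, the core of the antioxidant response element. The Fgf21 promoter holds TGATGNAA once at bases 108 to 115 (read TTGCATCA on the printed strand), CACGTG at 197 to 202 and TATAAA at 219 to 224. No 2 of these overlap. The Fut2 promoter holds none of the 4. Of all 33469 promoters of this length in the table, 3.98% hold TGATGNAA, 6.42% CACGTG, 14.2% TATAAA and 12.1% TGACNNNGC, and 0.206% hold both TGATGNAA and CACGTG. That pair, which the Fgf21 promoter holds, was the only pair counted, so its share does not mark this promoter as unusual. Promoters of 6 of the 8 fucosyltransferases were in the table. Among them TGACNNNGC occurs once in that of Fut4 and once at the second start of Fut8, and the other 3 motifs in none. A match describes letters in the window and not a bound site.

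Fgf21, a hormone of the fasting and stress response, changed with BDCM much as Fut1 did. It read -1.17, -1.66 and -1.77 in CO2-O2 BDCM animals, against -5.30, -5.54 and -5.31 in oil animals, and -1.79, -0.70 and -2.87 in isoflurane BDCM animals, against -6.80, -6.55 and -5.23. The groups did not overlap in either experiment, and Fgf21 rose by 4.13 ± 0.36 in the mean of both (SE, n = 6 animals per treatment, limma, adjusted p = 1.65e-05). In the isoflurane oil group it was well above background in 1 of 3 animals, and normexp with an offset of 50 gave 2.33. Ppp1r15a (GADD34), which restores translation after stress, rose by 0.94 and 0.99 on its 2 probes (adjusted p = 0.00932 and 0.00616), with an adjusted p of 0.0858 for the first when slide was a fixed block. Nucb1, a Golgi calcium-binding protein, rose by 0.33 to 0.38 on 3 of 3 probes. Bcat2, which starts the breakdown of branched-chain amino acids, rose by 0.29 on 1 probe (adjusted p = 0.0216) and differed by 0.20 on the other (adjusted p = 0.114). The Bcat2 call ended without oil animal 1 of the CO2-O2 experiment (adjusted p = 0.0524), when slide was blocked (0.109) or normexp used (0.102).

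Beyond these, nearby genes did not pass the test. Rasip1 differed by -0.17 (adjusted p = 0.147), Ntn5 by 0.10 (0.693) and Plekha4 by -0.04 and -0.13 on its 2 probes (0.746 and 0.168). Izumo1, Hsd17b14, Fut2 and Sec1 did not pass the filter. On the other side of Fut1 from Fgf21, Izumo1 was well above background in 1 of 12 animals, isoflurane BDCM animal 2, the animal with the highest Fut1.

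**Figure D2:**
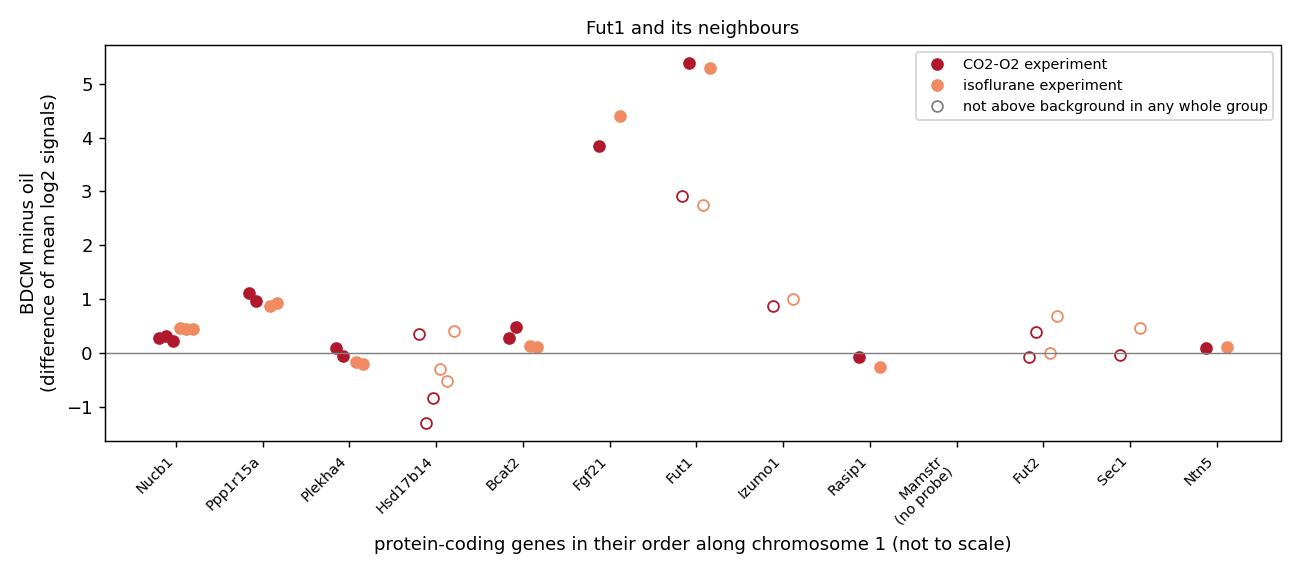
BDCM minus oil (difference of mean log2 signals) for each probe of Fut1 and of its neighbours in their order along chromosome 1, not to scale. Dark red points are the CO2-O2 experiment, orange points the isoflurane experiment, and open points are probes not above background in all animals of any group. Fut1 and Fgf21 stand side by side with the highest filled points, and Fut2 and Sec1 have open points only.

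The genes whose signal ran most like Fut1 over the 12 arrays were found among 12206 named genes. The measure was the root mean square difference of centred log2 signals, with signals raised to the background limit. Hrk, a BH3-only activator of apoptosis, was closest (0.330). It was followed by the asparagine synthetase Asns (0.516), the drug efflux pump Abcc2 (0.541), Fgf21 (0.552), the retinol-binding protein receptor Stra6l (0.644), the stress transcription factor Atf5 (0.655), the methyltransferase Nnmt (0.667) and the stress cofactor Nupr1 (0.678). Isoflurane BDCM animal 2 was the highest of the 6 BDCM animals for Fut1 and for each of these 8 genes. For Hrk it read -0.09, against -1.70 to -1.26 in the other 5. The 12 arrays share treatment, so any gene with a rise of this size scores as alike. Raising also gave the same signal to any 2 genes that lay under the limit of an array. Fut1 lay under it in all oil animals. Hrk was well above background in 0 of 3 CO2-O2 and 1 of 3 isoflurane oil animals. The closeness of Hrk to Fut1 in oil animals is thus mostly that of the limit and was not measured. The 8 genes were picked over these same arrays, so that they share the highest animal of Fut1 follows in part from the choice.

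Fut4, an alpha-1,3 enzyme found in many tissues, had 2 probes above background on all 12 arrays, and neither was called. Probe A_44_P458570 read -0.62, -0.58 and -0.60 in CO2-O2 BDCM animals, against -0.56, -0.80 and -0.83 in oil animals, and -0.68, -1.03 and -0.64 in isoflurane BDCM animals, against -0.53, -0.86 and -0.76. The groups overlapped in both experiments, and the mean difference was 0.03 (95% interval -0.17 to 0.23, adjusted p = 0.812). Probe A_64_P023401 read -4.79, -4.88 and -5.33 in CO2-O2 BDCM animals, against -4.49, -5.19 and -4.88 in oil animals. In isoflurane animals it read -5.36, -5.49 and -5.28 with BDCM, against -4.60, -4.51 and -5.24 with oil, without overlap. Its mean difference was -0.37 ± 0.16 (SE, n = 6 per treatment, limma, adjusted p = 0.0968). Without oil animal 3 of the isoflurane experiment, whose value lay next to the BDCM animals, the mean difference was -0.48 (adjusted p = 0.0270) and that of the isoflurane experiment -0.82 (adjusted p = 0.0275). Neither Fut4 probe passed with all animals.

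Fut7, which completes sialyl Lewis x mainly in leukocytes, was well above background on 2 of 12 arrays, 1 isoflurane BDCM animal (-5.31) and 1 isoflurane oil animal (-6.01). Its values ran from -6.92 to -5.31 in the 6 BDCM animals, against -7.96 to -5.66 in the 6 oil animals, and overlapped. Fut9, the enzyme that makes Lewis x in mouse brain and kidney, was above background on all 12 arrays. It read -5.28, -4.97 and -4.73 in CO2-O2 BDCM animals, against -4.86, -4.68 and -4.80 in oil animals, and -3.87, -4.39 and -4.79 in isoflurane BDCM animals, against -4.61, -4.33 and -4.58. Groups overlapped in both experiments, and the mean difference was -0.03 (95% interval -0.36 to 0.31, adjusted p = 0.903).

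Fut8, the enzyme of core fucosylation, was lower with BDCM on both probes. Probe A_43_P20053 read -2.65, -2.74 and -2.68 in CO2-O2 BDCM animals, against -2.16, -2.36 and -2.40 in oil animals, and -3.01, -3.12 and -2.97 in isoflurane BDCM animals, against -2.60, -2.66 and -2.76. Probe A_44_P383899 read 0.46, 0.47 and 0.29 in CO2-O2 BDCM animals, against 0.70, 0.81 and 0.61 in oil animals, and 0.44, 0.10 and 0.29 in isoflurane BDCM animals, against 0.48, 0.48 and 0.52. On both probes all BDCM animals lay below all oil animals of their experiment, as was so for 13% of all tested probes.

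The first probe fell by 0.38 ± 0.09 in the CO2-O2 experiment (adjusted p = 0.0131) and by 0.36 ± 0.09 in the isoflurane experiment (adjusted p = 0.0129; SE, n = 3 per group, limma). In the mean of both it fell by 0.37 ± 0.06, a 1.29-fold lower signal (adjusted p = 0.00103). The second probe fell by 0.26 ± 0.07 in the mean (adjusted p = 0.0148) and was not called in either experiment alone (-0.30 and -0.22, adjusted p = 0.0582 and 0.133). Its CO2-O2 difference passed without isoflurane BDCM animal 1 (0.0416) or 2 (0.0298), which enter only through the shared spread. The isoflurane call of the first probe ended without oil animal 1 of that experiment (adjusted p = 0.0501). With slide as a fixed block, which leaves 1 BDCM animal against 3 oil animals in the CO2-O2 experiment and 2 against 1 in the other, the differences were -0.43 and -0.30 (adjusted p = 0.0774 and 0.205). The call of the second probe in the mean ended when slide (0.171) or scan day (0.0984) was blocked, and the CO2-O2 call of the first with scan day (0.0628). Within scan day 3 the first probe differed by -0.39 and the second by -0.23. No difference between the experiments was detected in the Fut8 effect (0.02, 95% interval -0.25 to 0.29, adjusted p = 0.991).

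Proximal tubule markers were also lower with BDCM, in 6 of 6 genes, as were 4 of 7 distal nephron markers, in the mean of both experiments. The 6 proximal tubule markers summed to 514 to 630 in CO2-O2 BDCM animals, against 862 to 917 in oil animals, and to 506 to 749 in isoflurane BDCM animals, against 1004 to 1082. The 7 distal markers summed to 547 to 662 with BDCM, against 648 to 680 with oil, under CO2-O2, and to 509 to 554, against 603 to 666, under isoflurane. The distal sums overlapped under CO2-O2, but they are mostly Umod, whose mean log2 signal there was 8.73 with BDCM and 8.81 with oil. Of the 7 distal genes, 3 were called lower in the CO2-O2 experiment. The part of these cells in the Fut8 values was not tested.

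Fut10, which acts on secreted proteins in human cells, was well above background in 2 of 3 isoflurane BDCM animals and nowhere else. It read -5.82, -5.11 and -5.67 in the 3 isoflurane BDCM animals, against -6.08, -6.51 and -8.51 in their oil controls. The mean of all 3 BDCM animals, with animal 1 below background and not raised, gave a bound of at least 1.34-fold higher with BDCM. Without BDCM animal 1 the bound was 1.48-fold. In CO2-O2 animals, all below background, it read -7.31, -6.67 and -6.43 with BDCM, against -7.88, -8.64 and -6.88 with oil. Fut11, its close relative, was above background on all 12 arrays. It read -3.48, -3.52 and -3.43 in CO2-O2 BDCM animals, against -3.78, -3.57 and -3.75 in oil animals, and -3.34, -3.21 and -3.24 in isoflurane BDCM animals, against -3.45, -3.24 and -3.44. BDCM and oil were apart in the CO2-O2 experiment and overlapped in the isoflurane experiment. Its mean difference of 0.17 ± 0.06 did not pass (adjusted p = 0.0531). It passed with quantile normalization (0.20, adjusted p = 0.0239) and median scaling (0.20, 0.0287), among probes well above background on all 12 arrays (0.0479), and without oil animal 2 of the CO2-O2 (0.0329) or isoflurane (0.0295) experiment or isoflurane BDCM animal 1 (0.0477).

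**Figure D3:**
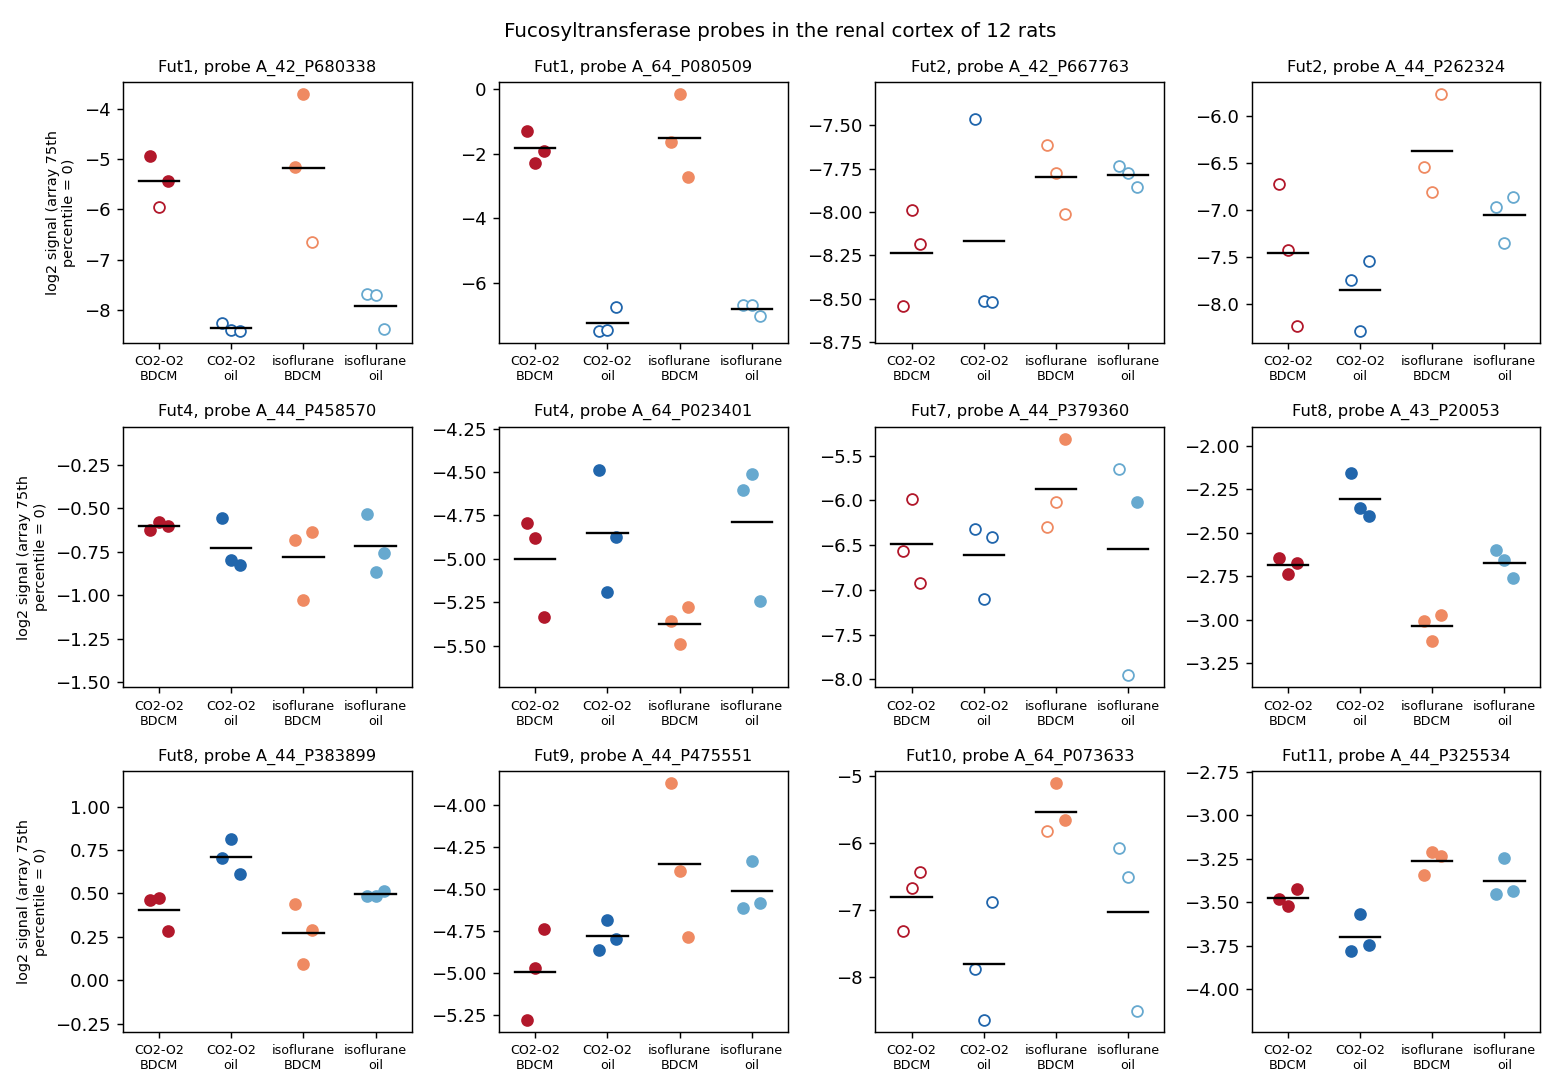
Log2 signal (75th percentile of each array at 0) of the 12 fucosyltransferase probes, by group from left to right: CO2-O2 BDCM, CO2-O2 oil, isoflurane BDCM, isoflurane oil. Each point is 1 animal, filled where the probe was well above background, and bars are means of 3 animals. Fut1 separates BDCM from oil by far, Fut8 separates them by a small step on both probes, and both Fut2 panels hold open points only.

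Of the 6 tested probes of genes other than Fut1, the CO2-O2 experiment called 0 higher and 1 lower, beside 19.8% of all tested probes called (9.86% higher and 9.9% lower). The isoflurane experiment called 0 higher and 1 lower, beside 25.9% called (13.1% higher and 12.7% lower). The mean of both called 0 higher and 2 lower, both of Fut8, beside 38.3% called (17.9% higher and 20.4% lower). In the CO2-O2 experiment the groups did not overlap for Fut11, higher, and both Fut8 probes, lower, beside 18.4% of all probes apart and higher and 21.2% apart and lower. In the isoflurane experiment they were apart for 0 probes, higher, and for both Fut8 probes and the second of Fut4, lower, beside 20.6% and 22.5%. Both calls come from 1 gene, and the median difference of the 6 probes, -0.14, stands beside -0.04 over all tested probes. For the difference of the BDCM effect between experiments, 0 of the 6 probes were called, beside 0% of all probes. There limma called 0 of 43274 at an adjusted p of 0.05, 2125 had an unadjusted p under 0.05, and the alternatives called 0 to 25.

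**Figure D4:**
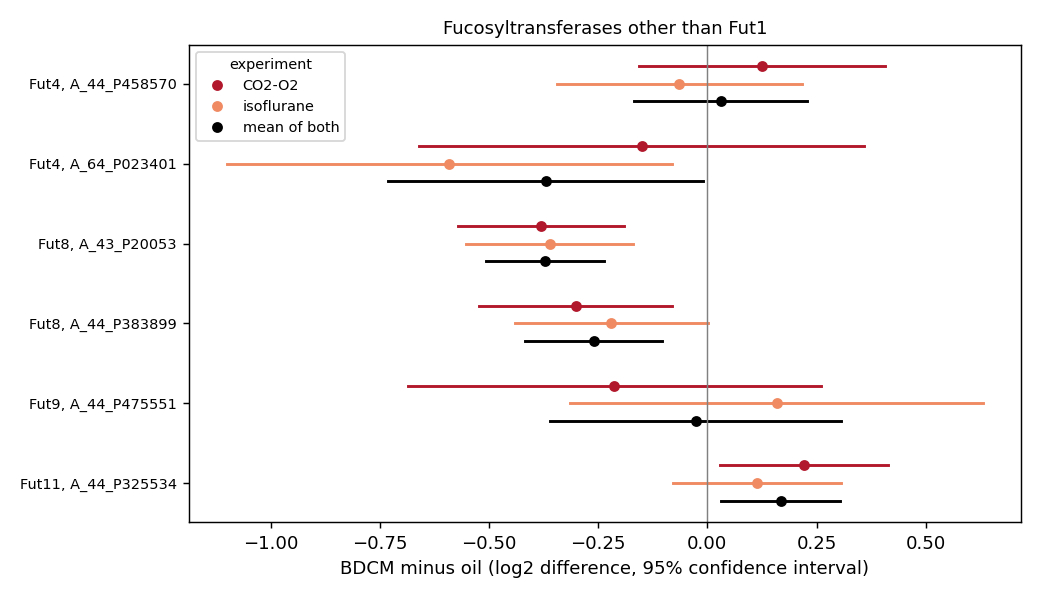
BDCM minus oil log2 differences of the 6 tested probes of fucosyltransferases other than Fut1, with 95% confidence intervals that are not adjusted for the number of probes. Each probe has the CO2-O2 experiment (dark red), the isoflurane experiment (orange) and their mean (black), with 3 animals per group. Only the intervals of both Fut8 probes and of the second Fut4 probe lie below 0 in the mean, and that of Fut11 lies above 0.

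Between experiments, 1 Fut8 probe was lower and Fut11 higher under isoflurane than under CO2-O2. Among oil animals the first Fut8 probe differed by -0.37 (isoflurane minus CO2-O2, adjusted p = 0.0248), and among BDCM animals by -0.35 (adjusted p = 0.0240). The second Fut8 probe differed by -0.21 in oil and -0.13 in BDCM animals (adjusted p = 0.203 and 0.388). Fut11 was higher by 0.32 in isoflurane oil animals (adjusted p = 0.0424) and differed by 0.21 in BDCM animals (adjusted p = 0.118). In oil animals 1 of 6 probes was thus higher and 1 lower, beside 10.6% of all probes called (6.96% and 3.63%), and in BDCM animals 0 were higher and 1 lower, beside 16.4% called (11.1% and 5.23%). In oil animals the experiments were apart for 4 probes, Fut9 and Fut11 higher and both of Fut8 lower, beside 23.2% of all probes apart and higher and 15.3% apart and lower. In BDCM animals they were apart for 3, Fut11 higher and 1 probe each of Fut4 and Fut8 lower, beside 21.4% and 11.8%. Fut9 differed by 0.64 in BDCM animals (adjusted p = 0.0643; 0.0230 without isoflurane BDCM animal 3).

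These calls were less firm than those of BDCM. Median scaling moved all oil differences by -0.11, and the share of calls that were higher was 35.0% with it and 51.8% with quantile normalization, against 65.7% as given here (42.1, 54.3 and 68.0% in BDCM animals). Fut11 then differed by 0.21 (adjusted p = 0.158) or 0.20 (0.179), and its call ended in 18 of 28 alternatives, among them the removal of any isoflurane animal but BDCM animal 2 and of any CO2-O2 animal but oil animal 2 and BDCM animal 2. The oil call of Fut8 ended without CO2-O2 oil animal 1 (0.0898) or 2 (0.0604) or isoflurane oil animal 2 (0.0688) or 3 (0.0845). Its BDCM call ended without CO2-O2 BDCM animal 1 (0.0650) or 3 (0.0642) or isoflurane BDCM animal 1 (0.0520) or 2 (0.0638). With quantile normalization the Fut8 probe differed by -0.44 in oil animals, and with median scaling by -0.48.

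The genes whose signal ran most like the first Fut8 probe were Spag9, a scaffold of JNK signalling (0.0707), the microtubule-binding gene Eml4 (0.0844), the chromatin remodeller Smarca2 (0.0874), the kinase gene Prkd3 (0.0883), the vacuolar ATPase subunit Atp6v1h (0.0900), ankyrin-G (Ank3, 0.0904), the ubiquitin ligase scaffold Cul1 (0.0953) and the vesicle tethering gene Vps54 (0.0960). They were picked for their likeness over the same 12 arrays, so that they share the group pattern of Fut8 follows from the choice.

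The genes around the fucosyltransferases, in 7 lists, did not move as one. Of 60 tested genes 9 rose, 12 fell and 39 did not pass in the mean of both experiments. In the CO2-O2 experiment 4 rose and 8 fell, and in the isoflurane experiment 6 rose and 8 fell. Of all tested probes, 17.9% were higher and 20.4% lower in the mean, 9.86% and 9.9% in the CO2-O2 experiment, and 13.1% and 12.7% in the isoflurane experiment.

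In the supply of GDP-fucose and GDP-mannose, 4 of 11 genes rose and 2 fell (median 0.10). Gmds, the dehydratase that turns GDP-mannose toward GDP-fucose, had the largest change. It read -1.38, -0.68 and -0.83 in CO2-O2 BDCM animals, against -2.16, -2.16 and -2.20 in oil animals, and -1.87, -0.61 and -0.94 in isoflurane BDCM animals, against -2.40, -2.66 and -2.67. The groups were apart in both experiments, and Gmds rose 2.50-fold in the mean (1.32 ± 0.20, SE, n = 6 per treatment, limma, adjusted p = 0.000636), with CO2-O2 animal 1 and isoflurane animal 1 the lowest of each BDCM group. Pmm1, a phosphomannomutase, rose by 0.46, and Gmppa, a regulator of GDP-mannose synthesis, by 0.45. Mpi, which interconverts fructose and mannose phosphates, fell by 0.31. Gfus, which completes GDP-fucose after Gmds, fell by 0.25 (adjusted p = 0.0129), and Slc35c1, the Golgi GDP-fucose transporter, rose by 0.22 (adjusted p = 0.0204). The Pmm1 call ended with slide as a fixed block (adjusted p = 0.0910). Gfus and Slc35c1 are outside the rule for naming and were named after their values were seen.

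Of the enzymes that build the chains fucosyltransferases act on, 17 were tested, of which 3 rose and 3 fell (median -0.04). B3galt5, which makes the type 1 chain, read 0.19, -0.37 and -0.78 in CO2-O2 BDCM animals, against 0.71, 0.75 and 0.70 in oil animals, and -0.71, -0.76 and -0.78 in isoflurane BDCM animals, against 0.33, 0.15 and 0.47. It fell by 1.05 ± 0.14 in the mean (SE, n = 6 per treatment, limma, adjusted p = 0.000276), without overlap in either experiment. B3galt2, of the same family, fell by 0.94 (adjusted p = 0.00135), and its 4 probes ran from -1.22 to -0.86, with an adjusted p of 0.0706 under slide as a fixed block. B3gnt8, which extends polylactosamine chains, fell by 0.64 (adjusted p = 0.0428), and 13 of 29 alternatives ended this, 9 of them by leaving out 1 animal, with an adjusted p of up to 0.0943. B4galt1, the main enzyme of type 2 chains, rose by 0.54 (adjusted p = 0.00485) and by 0.55 on its other probe.

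Among sialyl, ABO and GalNAc transferases, which act on the same chain ends, 1 of 12 rose and 1 fell (median -0.01). The sialyltransferase St3gal2 rose by 0.53 (adjusted p = 0.00154) and St3gal3 fell by 0.42 (adjusted p = 0.000118). Of 10 N-glycan branching enzymes that act before or beside Fut8, 0 rose and 3 fell (median -0.16). Mgat4b fell by 0.51 (adjusted p = 8.52e-05) and Mgat5 by 0.50 (adjusted p = 0.0108), both of which add branches. The other Mgat5 probe differed by -0.81 and was not called (limma, adjusted p = 0.0672). Man2a1, a Golgi mannosidase, fell by 0.30 (adjusted p = 0.0390), which 16 of 29 alternatives ended, 9 of them by leaving out 1 animal. Its 7 probes ran from -0.45 to -0.23. Mgat5 missed the threshold when slide (adjusted p = 0.213) or scan day (0.0974) was blocked.

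Of 5 tested genes of O-fucosylation and its extension, 0 rose and 1 fell: Lfng, which elongates fucose on Notch, by 0.31 (adjusted p = 0.00985, and 0.0667 when scan day was blocked). Lfng differed by -0.54 in the isoflurane experiment (limma, adjusted p = 0.00543) and by -0.07 in the CO2-O2 experiment (0.681). The difference between these effects was not called (adjusted p = 0.944). Of both fucosidases, Fuca1, the lysosomal enzyme that removes fucose, fell by 0.48 (adjusted p = 0.00186) and by 0.52 on its other probe, with 0.0789 under slide as a fixed block, and Fuca2 was not called. Of selectins and their carriers 3 of 6 genes passed the filter. Cd44 rose by 0.45 (adjusted p = 0.0211), while its other probes differed by 0.36 (0.0706) and -0.01 (0.980), and Glg1, an E-selectin ligand, fell by 0.20 (adjusted p = 0.0143, and 0.102 with slide as a fixed block). The Cd44 call ended without CO2-O2 oil animal 1, isoflurane oil animal 3 or isoflurane BDCM animal 2 (adjusted p of 0.0507 to 0.0509) and when slide (0.112) or scan day (0.108) was blocked.

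**Figure D5:**
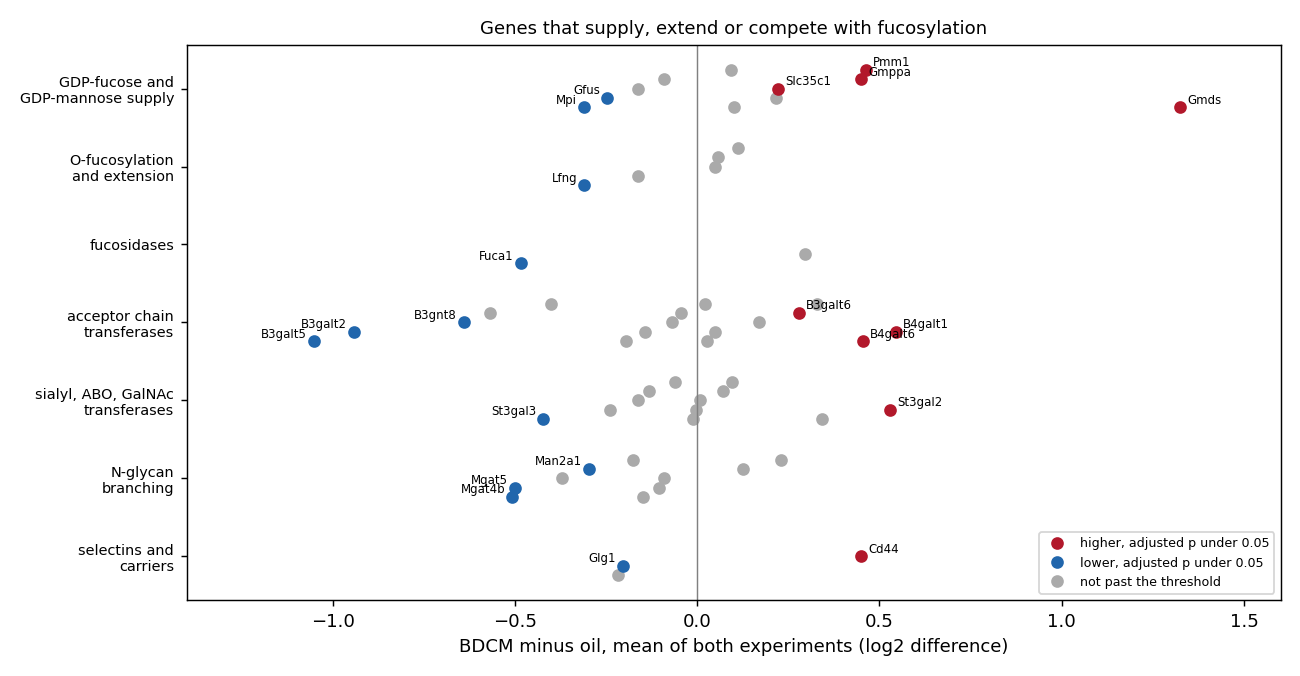
BDCM minus oil (log2 difference, mean of both experiments) for the 60 tested genes of the 7 lists, 1 point per gene and 1 row of points per list, spread in height for legibility. Named red points were higher and blue points lower at an adjusted p under 0.05, and grey points did not pass. Gmds lies farthest to the right at 1.32 and B3galt5 farthest to the left at -1.05.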

How the data were processed

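Total RNA of renal cortex was labelled with Cy3 and hybridised to 1-colour Agilent arrays, 12 in all. The authors read the deposited spot intensity values with Feature Extraction, version 10.7.1.1 in the scanner files and 10.7 in the submitters' processing notes, and the processed signal used here is background-subtracted. The deposited value table, a linear ratio to each array's 75th percentile, has column medians from 0.0999 to 0.112. In it 6 of 6 isoflurane columns matched their own scanner file and 0 of 6 CO2-O2 columns did, although all 12 matched a file of their own group, so animal numbers here follow the scanner files.

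The log2 processed signal minus the log2 of each array's 75th percentile was fitted per probe over all 4 groups with limma 3.58.1 in R 4.3.3 (lmFit, eBayes), with Benjamini-Hochberg adjustment over 43274 probes. Control spots and 115 outlier spot values were left out. Probes were named through RefSeq accessions (GRCr8 tables), which gave 27460 probes a symbol. Each probe was its own feature. List counts took the brightest probe of a gene, and up to 4 called genes per list with the largest mean effect were named. The 6 named genes on either side of Fut1 and the 8 genes most alike to Fut1 and to Fut8 were also named. The members and lists were chosen with earlier results of these data known. Same-numbered BDCM and oil animals did not deviate together (correlations from -0.0302 to 0.0614), so numbers were not taken as pairs. Alternatives covered scaling, background, filter, probe choice, model, blocks and leaving out each animal. The normexp alternative used median spot signals. The script was tested on simulated data.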

Additional observations from a re-analysis of the deposited data

How the results depend on the processing

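Counts of fucosyltransferase probes other than Fut1 called were 1 in the CO2-O2 experiment, 1 in the isoflurane experiment, 2 in their mean, 0 for the difference of BDCM effects, 2 for isoflurane minus CO2-O2 in oil animals and 1 in BDCM animals. In that order of comparisons, 1 probe per gene gave 0, 0, 1, 0, 1 and 0, an adjusted p of 0.01 gave 0, 0, 1, 0, 0 and 0, and a 2-fold minimum gave 0 in all 6. Slide as a fixed block gave 0, 0 and 1 in the first 3, and scan day as a fixed block gave 0 in the CO2-O2 experiment and 1 in the mean. Array quality weights gave 2 in the CO2-O2 experiment and 0 in BDCM animals, and a trend in eBayes gave 2 in the CO2-O2 experiment and 1 in oil animals. The mean of a gene's probes gave 1 in the mean and 0 in BDCM animals. Median scaling, quantile normalization, normexp, slide as a random block and no filter each gave 1 in oil animals, no filter gave 0 in BDCM animals, and a fit of only the groups compared gave 0 in both. Without 1 animal the counts ran from 1 to 2, 0 to 2, 2 to 3, 0 to 0, 0 to 2 and 0 to 2. The replicate block gave 1, 1, 2, 0, 2 and 1. It ended the call of Bcat2 (adjusted p = 0.0599) but moved none of these counts.

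Over all probes the counts were 8551 (1592 to 10174 under the alternatives), 11196 (2720 to 11878), 16560 (2278 to 16826), 0 (0 to 25), 4583 (503 to 8133) and 7077 (611 to 7485) in the same order, with the 2-fold minimum lowest in the 5 with calls. The 39 fucosyltransferase results, without the BDCM differences of Fut1, had 1102 values under the alternatives. Of these, 994 kept direction and side of the threshold, 47 lost the call, 16 gained it, 45 changed sign without a call and 0 called values reversed. The cause was not tested. Fut1 in oil animals lay below background, so its size is limited by the array's background, as are Fut2, Fut7 and Fut10.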
